A study of Mus musculus with 2 samples.

Results

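Immediate early and heat shock genes were described across the cell clusters of the recovering mouse colon and between a wild type library and a library labelled E4BP4 transgenic. The set was a list of 34 genes, 23 immediate early genes and 11 heat shock genes, of 32285 genes in both count tables. It was set by gene name, with earlier results of these data known. All 34 were found in both tables. Single-cell RNA was captured in droplets with a 10x Genomics 5' kit (v1.1), from sorted live CD45+ cells, that is, white blood cells, from the lamina propria, the tissue layer beneath the colon epithelium. Both groups were C57BL/6 mice aged 8 weeks that drank 2.0% dextran sulphate sodium (DSS, a polymer that injures the colon lining) for 7 days and plain water for the next 7 days, and both were sampled on day 14. The groups were wild type and E4BP4 transgenic, with overexpression of E4BP4 described as restricted to macrophages, and each was 1 library. The promoter that drives the transgene and the number of animals per library are not given in the labels, and no untreated group is among these samples.

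Immediate early genes are switched on within minutes of a stimulus without new protein synthesis, because signalling kinases act on transcription factors that already sit at their promoters. Their products are mostly transcription factors, such as the FOS and JUN proteins that pair to form AP-1, and inhibitors that end the response, such as the phosphatase DUSP1 and the RNA-binding protein tristetraprolin (Zfp36). Heat shock genes encode chaperones that hold or refold other proteins. The inducible ones are switched on by the factor HSF1 under heat, oxidation or other protein damage, while others are made in all cells at all times. Both sets are also known to respond when tissue is digested into single cells.

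Promoter sequences were searched for the sites of the factors known to drive these genes. RefSeq promoters (GRCm38.p6) were matched for 28 of 34 members, and the 250 bases before each start were searched on both strands. The heat shock element, the site of HSF1, was searched as GAANNTTC or TTCNNGAA. It was found in 7 of 8 heat shock genes with a promoter and in 2 of 20 immediate early genes (Jun and Egr2), against 14.5% of 27025 genes. The matches of Hspd1 and Hspe1 are the same bases read on opposite strands, since their windows overlap (chr1:55087933-55088182 and chr1:55087898-55088147). Hspa1a and Hspa1b are near-identical copies, so the 7 genes are not 7 independent cases. The cyclic AMP response element TGACGTCA, a site of CREB and ATF factors, was found in 3 of 20 immediate early genes (Dusp1, Btg2 and Ppp1r15a), against 1.77% of genes. The CArG box, the site of serum response factor, was found in 2 of 20 (Egr2 and Zfp36), against 1.62%. The AP-1 site TGANTCA, which 7.82% of genes hold, and the site of E4BP4 itself (TTACGTAA or TTATGTAA, held by 1.10%) were in 0 of the 37 windows of these 28 genes, some of which have several starts. The NF-kB consensus site, which 0.159% of genes hold, was in 0 as well. The EGR site (GCGTGGGCG or GCGGGGGCG) was the motif found in most immediate early promoters, 5 of 20 (Fosb, Zfp36, Nr4a1, Klf2 and Klf4), and in 1 of 8 heat shock promoters (Dnaja1), against 3.47% of genes. A match is a description of the letters and not a bound site, and no match says only that these letters are not in this window. Shown are the near-identical pair Hspa1a and Hspa1b and the small heat shock gene Hspb1, with the heat shock element in capitals, then Ppp1r15a and Btg2, with the cyclic AMP response element in capitals, and Fos, in which none of these motifs was found. Each runs 5′ to 3′ on the strand of its gene and ends at the base before the start: chr17:34972157-34972406 (minus strand), chr17:34959239-34959488 (minus), chr5:135887669-135887918 (plus), chr7:45526269-45526518 (minus), chr1:134079156-134079405 (minus) and chr12:85473640-85473889 (plus).
Hspa1a: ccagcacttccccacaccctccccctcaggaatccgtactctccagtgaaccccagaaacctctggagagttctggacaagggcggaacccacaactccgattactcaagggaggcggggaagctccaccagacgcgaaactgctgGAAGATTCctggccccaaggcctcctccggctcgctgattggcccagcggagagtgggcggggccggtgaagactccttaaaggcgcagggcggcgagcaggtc
Hspa1b: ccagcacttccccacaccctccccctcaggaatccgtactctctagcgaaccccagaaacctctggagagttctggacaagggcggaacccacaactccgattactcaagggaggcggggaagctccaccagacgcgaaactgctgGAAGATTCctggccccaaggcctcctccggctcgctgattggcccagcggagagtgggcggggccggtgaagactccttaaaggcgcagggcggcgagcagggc
Hspb1: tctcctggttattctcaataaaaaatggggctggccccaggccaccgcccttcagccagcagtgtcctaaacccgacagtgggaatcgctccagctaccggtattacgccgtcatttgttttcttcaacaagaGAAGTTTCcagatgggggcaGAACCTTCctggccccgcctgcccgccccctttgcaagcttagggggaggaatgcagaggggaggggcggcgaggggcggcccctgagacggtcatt
Ppp1r15a: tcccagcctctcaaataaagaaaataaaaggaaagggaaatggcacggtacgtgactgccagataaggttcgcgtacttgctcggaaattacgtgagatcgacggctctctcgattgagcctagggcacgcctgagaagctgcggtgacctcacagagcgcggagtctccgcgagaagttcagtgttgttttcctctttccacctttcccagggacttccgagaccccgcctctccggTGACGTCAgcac
Btg2: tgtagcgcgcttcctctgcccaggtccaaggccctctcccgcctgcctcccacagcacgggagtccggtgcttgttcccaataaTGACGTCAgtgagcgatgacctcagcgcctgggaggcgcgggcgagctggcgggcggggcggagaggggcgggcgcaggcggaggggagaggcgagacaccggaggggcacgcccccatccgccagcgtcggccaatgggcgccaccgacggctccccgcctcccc
Fos: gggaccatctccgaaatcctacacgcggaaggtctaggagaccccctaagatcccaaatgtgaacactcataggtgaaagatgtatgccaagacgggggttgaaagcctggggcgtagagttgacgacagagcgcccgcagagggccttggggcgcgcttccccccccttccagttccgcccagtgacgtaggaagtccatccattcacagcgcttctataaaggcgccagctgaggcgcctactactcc

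Hspa1a and Hspa1b are neighbouring single-exon genes on chromosome 17 (34969190 to 34972156 and 34956436 to 34959238, minus strand), and their promoters were identical at 247 of 250 positions, with the heat shock element GAAGATTC 104 bases before the start in both. The genes are near-identical copies, so how UMIs (unique molecular identifiers, each marking 1 captured RNA molecule) were divided between them is uncertain, and their values are given side by side. Hspb1 held the element at 117 and 97 bases before its start. In Ppp1r15a the cyclic AMP response element lay 12 bases before the start, and in Btg2 it lay 166 bases before it.

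The wild type library held 69346746 UMIs in 9855 barcodes and the library labelled transgenic 58884332 in 10143. The deposited metadata placed 6466 and 7026 of these cells in 10 numbered clusters, with 29.6% and 33.9% of the UMIs, and 142 barcode sequences occurred in both libraries, 67 of them among clustered cells. Clusters were called B-like, macrophage-like, monocyte-like, T-like, neutrophil-like, dendritic-like and fibroblast-like from marker genes. The fibroblast-like cluster showed 10 of 10 fibroblast and 7 of 8 endothelial markers at least 2-fold up although the sort was for CD45, and a lymphoid cluster led by Dapl1, Calca and Nmur1 and both low-UMI clusters, led by mast cell proteases and by haemoglobin genes, stayed unnamed. The haemoglobin-led cluster also showed 10 of 10 epithelial markers at least 2-fold up, and 48.4% of its cells held at least 2 of them. Neutrophil-like cells were fewer and shallower in the library labelled transgenic (167 cells, median 1751 UMIs) than in the wild type library (648 cells, median 3528.5). Nfil3, which encodes E4BP4, stood at 84.4 and 73.8 CPM (the UMIs of a gene per 1000000 UMIs of the same cluster and library) in macrophage-like cells, a ratio of 0.874 (0.724 to 1.06), so it does not check the label, and every direction given here rests on the submitted labels. With 1 library per genotype no test across animals is possible: a ratio is the transgenic-labelled CPM over the wild type CPM, its bracket is a 95% interval of counting error only, and "higher" or "lower" means at least 1.5-fold with at least 20 UMIs over both libraries.

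Ier3 had one of the widest ranges of the immediate early genes between clusters. Ier3, a gene that acts on cell survival and ERK signalling (chromosome 17, 35821684 to 35822923, plus strand, 2 exons), ranged from 13.9 CPM in B-like cells to 1473 CPM in monocyte-like cells of the wild type library. The order of its levels was nearly the same in the other library, with a Spearman correlation of 0.98 over the 10 clusters. Egr3, a zinc-finger factor, was lowest in monocyte-like cells (3.11 and 6.93 CPM) and highest in the haemoglobin-led cluster (188 and 204 CPM). That cluster also held epithelial and B cell markers, so the cells behind this Egr3 level are not known. Dusp1 was lowest in B-like cells in both libraries, at 161 and 165 CPM, and highest in monocyte-like cells of the wild type library (1743 CPM) and neutrophil-like cells of the other (3214 CPM). Gadd45b, a stress sensor that acts on p38 signalling, was highest in neutrophil-like cells (870 and 1135 CPM) and lowest in B-like cells (64.8 and 70.5 CPM).

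Among the AP-1 genes, Fos (chromosome 12, 85473890 to 85477273, plus strand) was lowest in T-like cells, at 466 and 527 CPM. It stood at 2636 and 2964 CPM in macrophage-like cells and at 2599 and 2955 CPM in monocyte-like cells, and the Poisson intervals of these neighbours overlapped in each library, while wild type fibroblast-like cells were higher still at 2983 CPM. Fosb was also lowest in T-like cells (59.2 and 95.6 CPM) and highest in macrophage-like cells (590 and 645 CPM). Jun was highest in fibroblast-like cells, at 1811 and 1409 CPM. Junb was flatter, with a highest-to-lowest ratio of 2.24 between clusters of the wild type library and 4.17 in the other. So the AP-1 genes did not share a single order: in the wild type library fibroblast-like cells led for Fos and Jun, macrophage-like cells for Fosb and the unnamed lymphoid cluster for Junb.

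**Figure D1:**
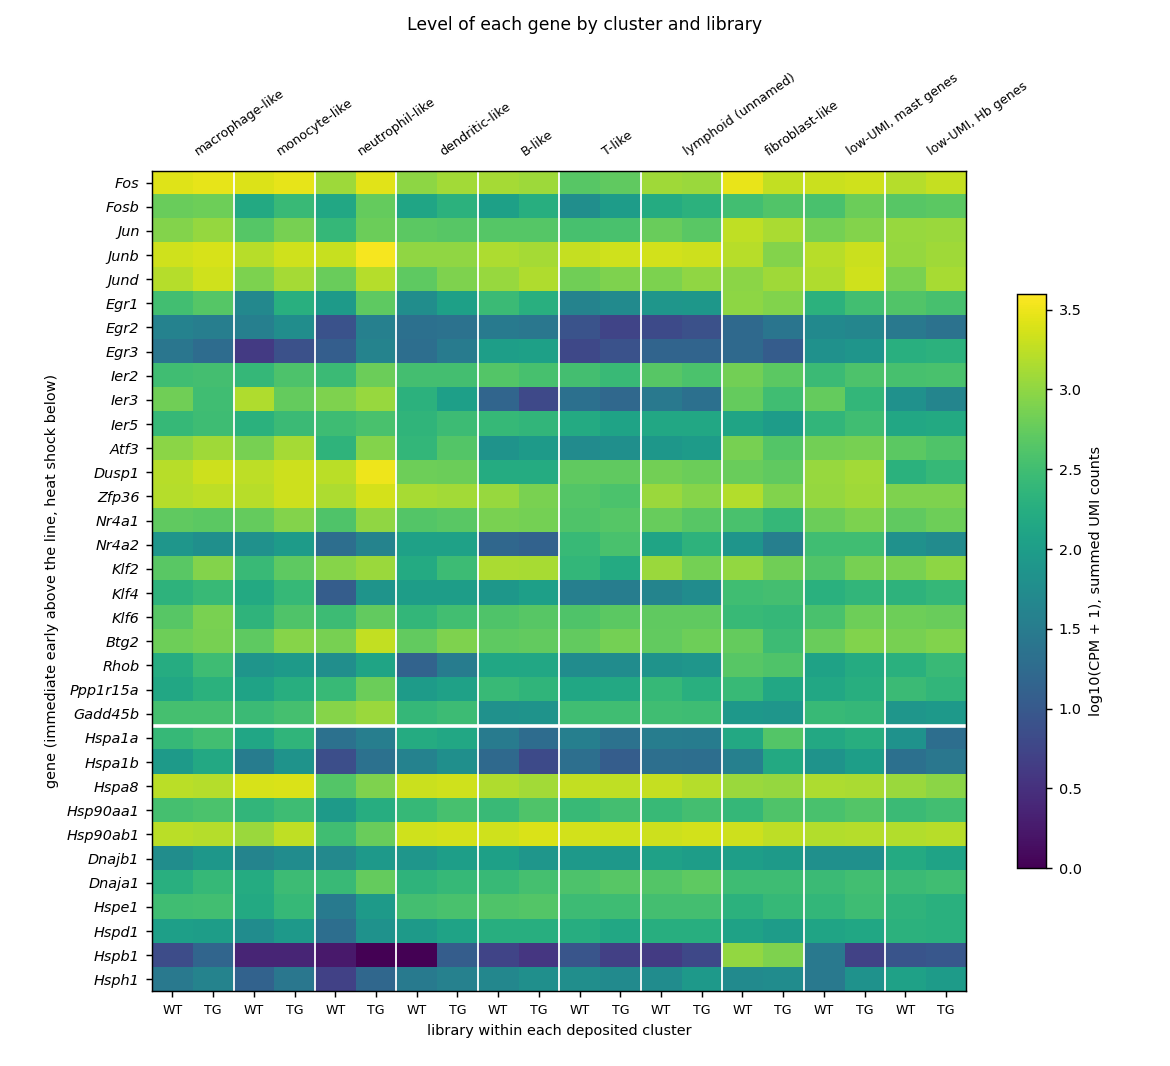
Level of each of the 34 genes as log10(CPM + 1) of summed UMI counts, in the wild type (WT) and transgenic-labelled (TG) library of each cluster, with immediate early genes above the line and heat shock genes below. Ier3 runs from 13.9 CPM in wild type B-like cells to 1473 CPM in wild type monocyte-like cells, and Hspb1 is high only in the fibroblast-like columns (1045 and 810 CPM).

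The Kruppel-like factor genes Klf2 and Klf4 kept lineage orders of their own. Klf2, a factor of resting lymphocytes and endothelium, was highest in B-like cells, at 1384 and 1358 CPM. It was lowest in dendritic-like cells of the wild type library (160 CPM) and in T-like cells of the other (160 CPM). Klf4 was highest in fibroblast-like cells (314 and 338 CPM) and lowest in wild type neutrophil-like cells (10.7 CPM). Among the orphan nuclear receptors, Nr4a2 separated clusters 21.0-fold in the wild type library, from 14.7 CPM in B-like cells to 309 CPM in the mast-protease cluster. Nr4a1, which T and B cells switch on after antigen receptor signalling, spanned only 2.03-fold there, from 365 to 742 CPM. Rhob, a small GTPase gene, was lowest in dendritic-like cells (13 and 31.3 CPM) and highest in fibroblast-like cells (465 and 410 CPM).

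Most heat shock genes shared their lowest cluster and differed in their highest. Hspa8, the constitutive Hsp70 of the cytosol, stood at 2401 and 2460 CPM in monocyte-like cells and at 431 and 805 CPM in neutrophil-like cells. Hsp90ab1, the constitutive Hsp90, was at 2225 and 2200 CPM in T-like cells and at 312 and 602 CPM in neutrophil-like cells. Of the 11 heat shock genes, 8 had their lowest wild type level in neutrophil-like cells, all but Dnajb1, Dnaja1 and Hspb1, and Hsph1 did so on 10 UMIs. The mitochondrial pair Hspe1 and Hspd1, which form the folding chamber of the matrix, were 13.8-fold and 10.7-fold apart between their highest and lowest wild type clusters. Inducible Hspa1a was highest in macrophage-like cells of the wild type library (260 CPM) and in fibroblast-like cells of the other (427 CPM), and lowest in neutrophil-like cells (20.9 CPM) and B-like cells (17.7 CPM), respectively. Hspb1, the small heat shock protein HSP27, stood at 1045 and 810 CPM in fibroblast-like cells and at no more than 27.6 CPM in any other cluster. With cells thinned to 1000 UMIs each, 32.9% of 82 and 13.3% of 90 fibroblast-like cells held an Hspb1 UMI, against 0.391% and 0.186% of B-like cells (44.7% and 25.2% against 1.04% and 0.537% without thinning). Thinning left out 21 and 17 shallower fibroblast-like and 106 and 88 B-like cells.

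Summed over each list, the 2 sets had different orders of clusters. The 23 immediate early genes together were highest in macrophage-like cells of the wild type library (16654 CPM) and lowest in T-like cells (7418 CPM). The 11 heat shock genes were highest in wild type fibroblast-like cells (5513 CPM) and lowest in neutrophil-like cells (1236 CPM). Hspb1 alone made 1045 of the 5513 CPM, and wild type dendritic-like cells were close at 5418 CPM. In the library labelled transgenic, immediate early genes were highest in neutrophil-like (24677 CPM) and lowest in T-like cells (8117 CPM). Heat shock genes there were highest in dendritic-like (5970 CPM) and lowest in neutrophil-like cells (2448 CPM). Across the 20 levels (10 clusters in 2 libraries), the summed lists had a Pearson r of -0.31, and -0.31 without the neutrophil-like cluster. This is a description, since the points share libraries and depth. The median r between pairs of members, on log2(CPM + 10), was 0.28 among 253 immediate early pairs, 0.30 among 55 heat shock pairs and -0.02 among 253 pairs across the lists.

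**Figure D2:**
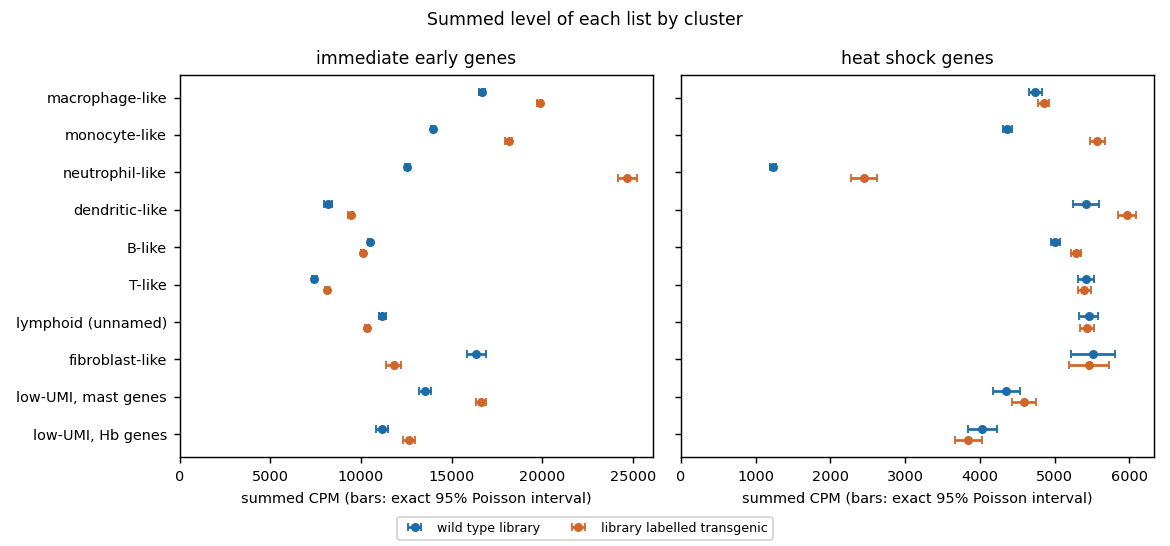
Summed CPM of the immediate early list (left) and the heat shock list (right) in each cluster, with points for the 2 libraries and bars for the exact 95% Poisson interval. The libraries are farthest apart in neutrophil-like cells, at 12548 and 24677 CPM for immediate early genes and 1236 and 2448 CPM for heat shock genes. In fibroblast-like cells the immediate early sum has a ratio below 1 (16359 and 11792 CPM) that does not reach the 1.5-fold size.

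Over all clustered cells the lists differed little between the libraries. The immediate early sum was 12041 CPM in the wild type library and 13044 CPM in the other (ratio 1.08, 1.08 to 1.09), which was 0.977 when scaled by the median gene. The heat shock sum was 4420 and 5222 CPM (ratio 1.18, 1.17 to 1.19). By size, Fosb and Nr4a2 were higher and Ier3 lower among 23 immediate early genes, and Hspa1b and Hsph1 were higher among 11 heat shock genes, against 13.6% of 14199 genes higher and 7.82% lower. The median of all genes there was 0.15 on the log2 scale, and relative to it Nr4a2 and Hspa1b were the members still higher by this size, with Ier3 lower. These pooled values mix clusters whose shares of cells differ, and the clusters are taken in turn below.

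In macrophage-like cells, the named target of the transgene, a few immediate early genes were higher and 1 was lower. Their sum was 16654 CPM in the wild type library and 19851 CPM in the other (ratio 1.19, 1.18 to 1.21), below the 1.5-fold size. The finer deposited cluster with most of these cells (587 and 994) had 1.22, and the smaller ones with 41 and 41 and with 26 and 50 cells had 0.857 and 0.924. Higher were Klf2, Klf6 and Rhob, and lower was Ier3, of 23, against 8.66% of 10213 genes higher and 8.52% lower. The median log2 ratio of the list was 0.18, beside -0.04 for all genes. Klf2 stood at 473 and 852 CPM (ratio 1.80, 1.68 to 1.93). Klf6, a factor known to act in macrophage activation, stood at 455 and 747 CPM (1.64, 1.53 to 1.76), and Rhob at 167 and 299 CPM (1.80, 1.60 to 2.03). None of these 3 pairs of Poisson intervals overlapped. Ier3 stood at 657 and 312 CPM (ratio 0.475, 0.440 to 0.514). The AP-1 genes Fos (1.12), Jun (1.24) and Junb (1.12) and the EGR gene Egr1 (1.37) had ratios above 1 that did not reach the 1.5-fold size.

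Heat shock genes in macrophage-like cells summed to 4744 and 4855 CPM (ratio 1.02, 0.999 to 1.05). Of 11, 2 were higher and 0 lower, beside the 8.66% and 8.52% of all genes, and 1 of the 2 rested on few cells. Hspa1b stood at 89.7 and 150 CPM (ratio 1.67, 1.42 to 1.98), and its copy Hspa1a at 260 and 324 CPM, 1.25 (1.13 to 1.38). An Hspa1a UMI was found in 16.0% of 601 and 24.3% of 1034 macrophage-like cells thinned to 1000 UMIs, against 2.30% and 1.44% of B-like cells. Without thinning these Hspa1a shares were 28.6% and 41.2%, against 3.94% and 2.59%, and thinning left out 63 and 72 macrophage-like cells. Hspb1 (5.77 and 14.1 CPM, a ratio of 2.44) was the one that did so: 88.5% of the 52 UMIs counted in the transgenic-labelled library came from 5 cells, and without the 5 top cells of each library the ratio was 0.523. Hspa8 (0.951), Hsp90ab1 (0.95) and Hspd1 (0.931) were within 1.1-fold of equality. T cell markers moved with these values: the 12 markers summed to 268 and 630 CPM in macrophage-like cells, a ratio of 2.35, with 0 of 12 absent in either library. At the ratio of the lists to T cell markers in T-like cells, that marker RNA would bring 346 and 833 CPM of immediate early and 253 and 554 CPM of heat shock RNA.

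Monocyte-like cells showed the broadest difference among the well-filled named clusters. The immediate early sum was 13955 CPM in the wild type library and 18132 CPM in the other (ratio 1.30, 1.28 to 1.32). Of 23 genes 13 were higher and 1 was lower, against 14.9% of 9302 genes higher and 9.05% lower, and 22 had a ratio above 1. The list's median log2 ratio was 0.66, beside 0.08 for all genes. Egr1, a zinc-finger factor at the head of growth factor and macrophage differentiation programmes, stood at 46.5 and 185 CPM (ratio 3.98, 3.36 to 4.72). An Egr1 UMI was found in 3.69% of 813 and 12.4% of 437 thinned monocyte-like cells, against 3.10% and 5.15% of T-like cells, so the wild type share was near that of the cluster with the lowest Egr1 level. Unthinned, the Egr1 shares were 15% and 29.1% of monocyte-like and 9.67% and 14.7% of T-like cells. Klf6 (218 and 409 CPM) and Klf2 (277 and 506 CPM) had ratios of 1.88 and 1.83. Atf3, a stress-induced repressor of cytokine genes, stood at 731 and 1323 CPM (ratio 1.81, 1.72 to 1.90). Jund (1.72), Btg2 (1.75), Fosb (1.77) and Klf4 (1.71) were of like size, while Fos (2599 and 2955 CPM, 1.14) and Dusp1 (1743 and 2146 CPM, 1.23) did not reach it.

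Heat shock genes of monocyte-like cells summed to 4367 and 5571 CPM (ratio 1.28, 1.25 to 1.30). Of the 10 with at least 20 UMIs, 7 were higher and 0 lower, beside 14.9% and 9.05% of all genes, with a median log2 ratio of 0.69. Relative to the median gene 5 were higher, since Hsp90ab1 (1.49) and Hspd1 (1.45) then missed the 1.5-fold size. Hsp90ab1 stood at 1144 and 1796 CPM (ratio 1.57, 1.51 to 1.64), and Dnaja1, a co-chaperone that feeds clients to Hsp70, at 161 and 293 CPM (1.82, 1.64 to 2.03). Hspa1a stood at 135 and 224 CPM (1.66) and Hspa1b at 31.3 and 70.2 CPM (2.24). The mitochondrial Hspe1 (1.71) and Hspd1 (1.53) and the exchange factor gene Hsph1 (2.04) were also higher, and Hspa8 was not (2401 and 2460 CPM, 1.02). Several other signals moved with these: ribosomal protein genes had a ratio of 1.22, macrophage markers 1.27, dendritic cell markers 1.55, monocyte markers 0.851 and neutrophil markers 0.103. Their part in these differences was not tested, but values within the finer deposited clusters can be given. The finer cluster numbered 3 held 583 and 336 of these cells and cluster 11 held 202 and 50, a smaller share in the library labelled transgenic. Within cluster 3 the immediate early ratio was 1.2 and the heat shock ratio 1.16, and within cluster 11 they were 1.39 and 1.61. Egr1 had ratios of 3.32 and 2.70 there, and Ier3 of 0.438 and 0.691.

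Neutrophil-like cells had the largest ratios, in a cluster where most genes were shifted. Immediate early genes summed to 12548 and 24677 CPM (1.97, 1.92 to 2.02) and heat shock genes to 1236 and 2448 CPM (1.98, 1.83 to 2.14). Of all 6048 genes with enough UMIs 52.1% were higher and 10.2% lower, and the median gene had a ratio of 1.56. Beside this shift, neutrophil markers alone took 253908 CPM in the wild type library and 107260 CPM in the other. Relative to the median gene, the sums had ratios of 1.26 and 1.27, and 10 of 23 immediate early and 3 of 9 heat shock genes were higher, against 22.6% of genes higher and 24.9% lower on that scale. The 10 were led by Klf4 (10.7 and 72.6 CPM), with a ratio of 4.37 relative to the median gene, Egr1 (89.6 and 508 CPM, 3.64) and Atf3 (219 and 863 CPM, 2.52). Klf4 rested on 27 and 24 UMIs, 75% of the latter in 5 cells. Ier3 (0.873), Klf2 (0.825), Gadd45b (0.837) and Ier5 (0.760) were below the median gene there, so the list did not move as a block. Depth moved with the result: with cells split by depth into 3 equal groups, the shallowest wild type group (median 1607.5 UMIs) had 17413 CPM of immediate early RNA, and the middle group of the other library (median 1746.5 UMIs) had 27773 CPM. Macrophage markers (794 and 2585 CPM, a ratio of 3.26) and T cell markers (41.4 and 339 CPM, 8.18) also moved with it, and their part was not tested.

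Dendritic-like cells shared part of the monocyte-like pattern. Their immediate early sum was 8182 and 9428 CPM (ratio 1.15, 1.12 to 1.19), with 7 of 23 higher and 1 lower, against 11.5% of 7349 genes higher and 11.4% lower. Egr1 stood at 57.8 and 112 CPM (1.93, 1.36 to 2.79), Atf3 at 243 and 427 CPM (1.76, 1.48 to 2.10), Klf2 at 160 and 294 CPM (1.83, 1.49 to 2.28) and Jund at 510 and 809 CPM (1.58, 1.41 to 1.79). Rhob (13 and 31.3 CPM) rested on 9 and 50 UMIs, and the lower gene was again Ier3, at 202 and 108 CPM (0.535, 0.426 to 0.674). Heat shock genes had 1 of 10 higher, Hspa1b at 39.0 and 60.1 CPM, whose interval reached below 1 (0.996 to 2.46). The dendritic cell markers themselves were at 14420 and 21711 CPM, so the makeup of this cluster differed between the libraries, and its part was not tested.

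Lymphoid clusters showed few differences and some of opposite direction. In B-like cells the immediate early sum was 10470 and 10081 CPM (0.963, 0.952 to 0.974), and 1 of 23 was higher and 2 were lower, against 7.22% of 10665 genes higher and 5.61% lower. Egr1, which B cells switch on after antigen receptor signalling, stood at 284 and 183 CPM there, a ratio of 0.645 (0.596 to 0.697), against ratios above 1 in the 4 myeloid clusters with names. Zfp36 stood at 1110 and 743 CPM (0.670), just inside the 1.5-fold size. Of 11 heat shock genes 3 were lower in B-like cells, all at low levels: Hspa1a (30.9 and 17.7 CPM), Hspa1b (16.0 and 5.54 CPM) and Hspb1 (4.43 and 2.77 CPM, on 28 and 15 UMIs). The same 3 were lower in T-like cells, where Hspa1a was at 34.7 and 21.7 CPM (0.626, 0.430 to 0.913) and 49.2% of its wild type UMIs were in 5 cells. T-like cells had 1 of 23 immediate early genes higher (Fosb, 59.2 and 95.6 CPM, 1.62) and 1 lower (Egr2, on 13 and 12 UMIs), against 8.22% of 9570 genes higher and 8.27% lower. In the unnamed lymphoid cluster, 1 was higher (Nr4a2, 126 and 214 CPM, 1.70) and 1 lower (Klf2, 1137 and 704 CPM, 0.619), against 10.7% and 7.31% of 9590 genes.

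Klf2 thus had ratios on both sides of 1. It was higher in macrophage-like (1.80), monocyte-like (1.83) and dendritic-like cells (1.83). It was lower in the unnamed lymphoid cluster (0.619) and in fibroblast-like cells (0.628), stood at 0.671 in T-like cells (238 and 160 CPM), and was at 0.982 in B-like cells, its cluster of highest level. In neutrophil-like cells its ratio of 1.29 became 0.825 relative to the median gene. The unnamed lymphoid cluster had T cell markers at 3375 and 3657 CPM and haemoglobin genes at 725 and 3.07 CPM, and the part of its makeup in the Klf2 difference was not tested.

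In fibroblast-like cells the immediate early sum had a ratio below 1 while the heat shock sum was near equal. Immediate early genes summed to 16359 and 11792 CPM (ratio 0.721, 0.689 to 0.754), and heat shock genes to 5513 and 5457 CPM (0.99, 0.920 to 1.06). Of 21 immediate early genes with enough UMIs 0 were higher and 9 lower, against 13.5% of 4808 genes higher and 21.3% lower, with a median log2 ratio of -0.45 beside -0.09 for all genes. Junb stood at 1644 and 854 CPM (0.520, 0.442 to 0.610), Zfp36 at 1513 and 837 CPM (0.553, 0.469 to 0.652) and Fos at 2983 and 1864 CPM (0.625, 0.558 to 0.699). By contrast Hspa1a stood at 147 and 427 CPM (2.91, 2.00 to 4.32), Hspa1b at 35.7 and 155 CPM (4.34, 2.09 to 10.1) and Hsp90aa1, the inducible Hsp90, at 246 and 410 CPM (1.66, 1.21 to 2.30). These values rest on 103 and 107 cells, and a few carry much of them: 5 cells held 38.1% and 34.9% of Fos UMIs and 48.6% and 50% of Hspa1a UMIs. Without the 5 top cells of each library Fos had a ratio of 0.656, Zfp36 of 0.768, Btg2 of 0.755 and Hspa1a of 2.80. Endothelial markers moved with the immediate early genes (2613 and 1292 CPM, a ratio of 0.494) while fibroblast markers stood at 22503 and 25957 CPM, and the part of this mixture was not tested.

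The clusters of low UMI number are given for completeness. In the mast-protease cluster, in which only 3.73% of cells held at least 2 mast cell markers, the immediate early sum was 13520 and 16613 CPM (1.23), with 4 of 23 higher (Fosb, Egr1, Klf2 and Klf6) and Ier3 lower, against 13.1% and 14.8% of 7009 genes. Hsph1 was higher there among the heat shock genes, on 15 and 49 UMIs. In the haemoglobin-led cluster the sums had ratios of 1.14 and 0.953, with Jund higher (745 and 1366 CPM, 1.83), Ier3 lower (65.0 and 42.9 CPM) and Hspa1a lower (67.5 and 19.3 CPM, on 27 and 9 UMIs), against 9.5% of 6444 genes higher and 18.6% lower (13.4% and 13.6% relative to the median gene). Haemoglobin genes stood at 7820 CPM in that cluster in the wild type library, with 0 UMIs in the other, so its makeup differed. Epithelial markers stood there at 8015 and 11115 CPM and B cell markers at 5546 and 6000 CPM.

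A few members kept 1 direction in nearly all clusters. Of 30 members with at least 20 UMIs in every cluster, 4 had a ratio above 1 in all 10 (Fosb, Jund, Hsp90aa1 and Dnaja1), which is 3.23% of 3249 genes over the whole table, and 0 had a ratio below 1 in all 10, as for 2.12% of genes. Jund, the JUN gene that is expressed in resting cells, had its smallest ratio in T-like cells (653 and 788 CPM, 1.21) and a ratio of 1.40 (1.35 to 1.46) in macrophage-like cells. Dnaja1 ranged from 1.03 in fibroblast-like to 2.02 in neutrophil-like cells. Other members went both ways: over the 7 named clusters, 13 of 34 were higher in at least 1 and lower in another, beside 13.9% of 10642 genes, and 7 of 34 relative to the median gene of each cluster, beside 11% of genes. Relative to the median gene of each cluster, the ratio of Jund lay between 1.22 (T-like cells) and 1.98 (the haemoglobin-led cluster).

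**Figure D3:**
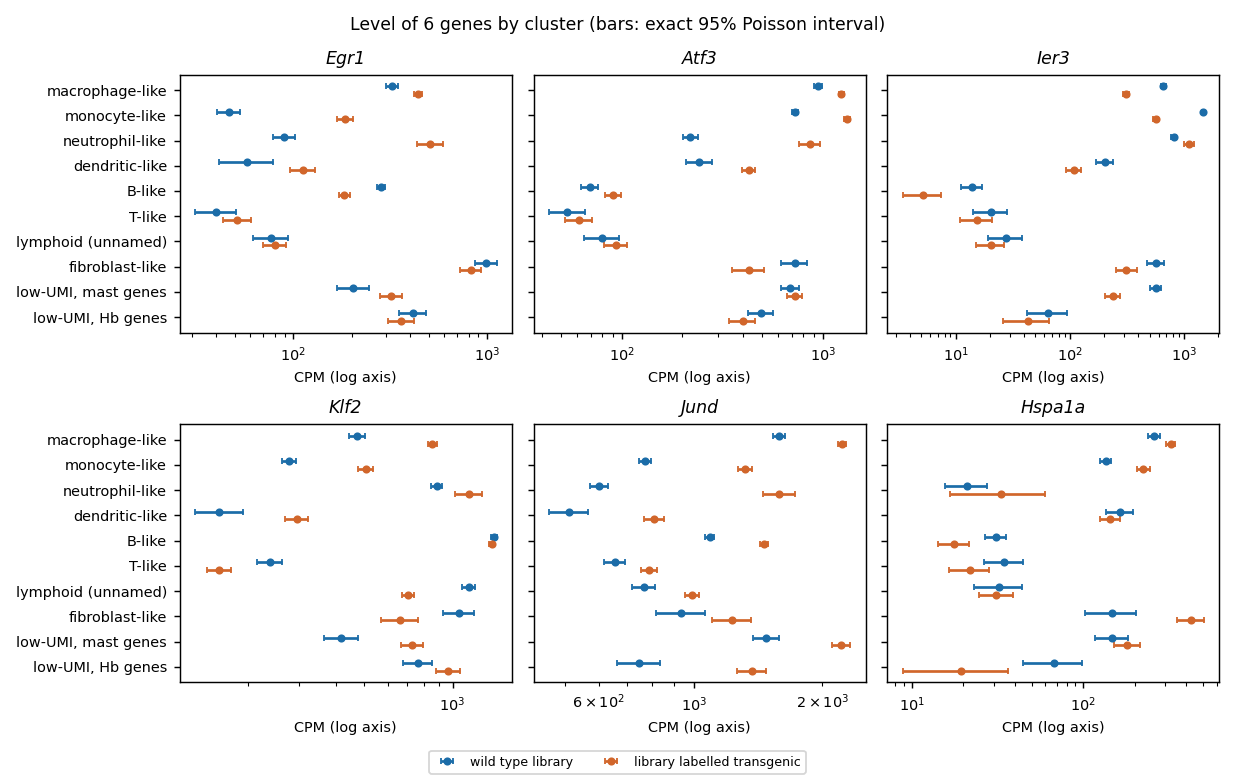
Level in CPM on a log axis of 6 genes in each cluster, with points for the 2 libraries and bars for the exact 95% Poisson interval. Ier3 has a ratio below 1 in 9 of 10 clusters and is lower by at least 1.5-fold in 7. Jund has a ratio above 1 in 10 of 10 and is higher by that size in 4. Egr1 is higher in monocyte-like cells (46.5 and 185 CPM) and lower in B-like cells (284 and 183 CPM).

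Ier3 had a ratio below 1 in 9 of 10 clusters, and in 7 it was lower by at least 1.5-fold. Its ratios in dendritic-like (1.01) and fibroblast-like cells (1.19) turned when cells with markers of 2 classes were removed, a step that took out most cells. It stood at 1473 and 564 CPM in monocyte-like cells, a ratio of 0.383 (0.360 to 0.407). With cells thinned to 1000 UMIs, 50.1% of 813 and 31.8% of 437 monocyte-like cells and 34.3% and 21.9% of macrophage-like cells held an Ier3 UMI, against 1.39% and 0.466% of B-like cells. Unthinned Ier3 shares were 77.4% and 62.7%, 49.5% and 40.9%, and 3.57% and 1.25%, where median depths were 5715.5 and 5054, 3151 and 3082, and 2445 and 2235 UMIs. The exception was the neutrophil-like cluster, at 811 and 1105 CPM, where the ratio of 1.36 became 0.873 relative to the median gene. Neutrophil markers were also lower in every cluster, with ratios of 0.0593 in B-like, 0.213 in macrophage-like and 0.103 in monocyte-like cells. At the ratio of Ier3 to neutrophil markers within neutrophil-like cells, that marker RNA would bring 1.75 and 1.2 CPM of Ier3 to macrophage-like cells and 7.77 and 2.58 CPM to monocyte-like cells, where 657 and 312 CPM and 1473 and 564 CPM were measured. In B-like cells the same step gives 1.63 and 0.312 CPM of 13.9 and 5.17 CPM. These carried values cover RNA from neutrophil-like cells only. Monocyte markers stood at 725 and 729 CPM in B-like cells. In monocyte-like cells, where Ier3 was at 1473 and 564 CPM, they stood at 17022 and 14493 CPM. What RNA from monocyte-like cells would bring to B-like or other cells was not tested.

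Related genes were read from lists of other pathway members. In macrophage-like cells the feedback inhibitors and NF-kB early genes had 6 of 37 higher and 1 lower (median log2 ratio 0.13), beside 8.66% and 8.52% of all genes, which is the background for each list in this cluster. Among the 6 were Tnfaip3, which encodes the NF-kB brake A20 (233 and 369 CPM, 1.59, 1.43 to 1.76), and Cd69 (78.2 and 120 CPM, 1.53). Cebpb, a factor of monocyte and macrophage maturation, was lower at 922 and 614 CPM (0.666, 0.627 to 0.707). The upstream kinases and SRF and ELK factors had 1 higher (Elk4, 22.6 and 34.2 CPM) and 1 lower (Elk1, named after its value was seen) of 15, and other AP-1, ATF and Maf genes had 0 each way of 13. HSF1 with the co-chaperones had 0 each way of 28. Of 19 chaperones of the endoplasmic reticulum and mitochondria, 0 were higher and 3 lower: Pdia3 (526 and 304 CPM, 0.578), Pdia6 (282 and 187 CPM, 0.665) and Dnajb11 (94.1 and 62.4 CPM, 0.663).

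In monocyte-like cells the feedback and NF-kB early list had 12 of 34 higher and 1 lower, beside 14.9% of all genes higher, and the genes named here were picked in this cluster by the rule set for macrophage-like cells. Rgs1, a brake on G protein signalling, stood at 67.8 and 200 CPM (2.95, 2.54 to 3.43), Cd69 at 26.9 and 73.9 CPM (2.75) and Nfkbid at 92.5 and 179 CPM (1.93). Of 14 other AP-1, ATF and Maf genes 2 were higher, with Batf3 at 40.5 and 115 CPM (2.85), and 2 lower. Fosl1, which encodes the FOS relative FRA-1, was lower at 10.9 and 0.924 CPM, on 49 and 2 UMIs, a ratio of 0.0848 (0.00999 to 0.323). The co-chaperone list had 2 of 28 higher (Hspbp1, 1.84, and Chordc1, 1.5) and the endoplasmic reticulum list 1 higher (Herpud1, 1.79) and 1 lower (Hspa13, 0.570) of 19. The higher heat shock genes of monocyte-like cells were thus accompanied by a median log2 ratio of 0.18 in each of these chaperone lists, beside 0.08 for all genes.

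Among the genes whose levels over the 20 cluster and library points were most like Fos, of 9794 genes, were Atf3 (Pearson r 0.88), Apoe (0.85), Arap1, Trps1, Gnaq, Fcgr2b, Dusp6, Plod3 and Parp12 (0.80). Of these, Atf3 is a member. Most like Hspa1a were Cmtm3 and Vwa5a (both 0.94), Pltp, its copy Hspa1b (0.92), Parvb, Zfp385a, Sulf2, Sdc3, Csgalnact2 and Slc39a1 (0.90). These correlations describe 10 clusters measured in 2 libraries and carry no test.

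Single cells varied widely within a cluster. At 1000 UMIs per cell, the median macrophage-like cell held 15 immediate early UMIs in the wild type library and 19 in the library labelled transgenic, with the 10th and 90th percentiles at 3 and 34 and at 4 and 40. Monocyte-like cells held medians of 12 and 16, neutrophil-like cells 11 and 23.5, T-like cells 6 and 7, and B-like cells 9 in both. The fibroblast-like cluster had medians of 8 and 6 with 90th percentiles of 44 and 32.1, so a minority of its cells carried much of the sum. Heat shock medians were 4 in both libraries in macrophage-like and 4 and 5 in monocyte-like cells. Across cells, the Spearman correlation of the 2 sums lay between -0.09 and 0.28 over all clusters and libraries, while Fos and Jun reached 0.35 and 0.38 in macrophage-like and 0.58 and 0.46 in fibroblast-like cells. Shallower macrophage-like cells had more immediate early CPM: 25807 in the shallowest and 17458 in the deepest of 3 depth groups of the library labelled transgenic, and 20681 and 16201 CPM in the wild type library. Heat shock RNA moved less with depth there, from 5067 to 4764 CPM and from 4767 to 4746 CPM.

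Barcodes that the metadata leave out held the same genes at other levels. Those with at least 5% immunoglobulin UMIs had low sums, 3906 and 4515 CPM for immediate early and 1601 and 2104 CPM for heat shock genes. They had medians of 23260 and 19260.5 UMIs. Immunoglobulin UMIs count in the total that CPM is taken over, which lowers the CPM of all other genes, and its part here was not tested. Barcodes with at least 5% mitochondrial UMIs, a sign of damaged cells, had 10856 and 12142 CPM and 3335 and 3312 CPM, so neither sum was above that of clustered cells. Of the members compared there, Egr1 (390 and 468 CPM, beside 180 and 218 in clustered cells), Atf3 (572 and 742, beside 367 and 507), Hspa1a (121 and 135, beside 87.8 and 121) and Hspa1b (52.8 and 71.8, beside 29.3 and 52.5) were nonetheless above their levels in clustered cells in both libraries. The others compared were below them in both: Klf2 (169 and 262, beside 782 and 796), Ier3 (153 and 75.6, beside 533 and 166), Fos, Jund, Hspa8, Hsp90ab1 and Hspe1.

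Barcodes with at least 2200 genes offer the same comparison in barcodes the clusters did not use. They were assigned to the cluster with the most similar profile, computed without the 34 members, which put 83.1% of 6746 held-out cells in their own cluster. Those were clustered cells, with library medians of 2700 and 2427.5 UMIs, beside 10126.5 and 10070.5 in the left-out barcodes. The 83.1% therefore does not check the assignment of such deep barcodes, and whether some hold several cells was not tested. In 343 and 343 macrophage-like barcodes the immediate early ratio was 1.04 (1.03 to 1.05) and the heat shock ratio 0.99 (0.971 to 1.01). Ier3 had 511 and 216 CPM there (0.423, 0.389 to 0.460), Klf6 255 and 435 CPM (1.71) and Klf2 297 and 443 CPM (1.49), while Rhob had 128 and 160 CPM (1.25) and Fos 2438 and 2055 CPM (0.843). Ier3 and Klf6 thus passed the 1.5-fold size here as in clustered cells, while Klf2 and Rhob, with 1.80 each in clustered cells, did not. In 628 and 78 monocyte-like barcodes the sums had ratios of 1.03 and 1.22, with Egr1 at 52.7 and 189 CPM (3.59, 2.96 to 4.35), Ier3 at 1163 and 410 CPM (0.353), Klf2 at 345 and 652 CPM (1.89) and Hsp90ab1 at 1382 and 2325 CPM (1.68, 1.60 to 1.77). Atf3, at 744 and 903 CPM (1.21), and Hspa1a, at 92.1 and 103 CPM (1.12), were within the 1.5-fold size there, and Fos was at 2975 and 2275 CPM (0.765). In 300 and 457 dendritic-like barcodes Fosb (1.53), Egr1 (1.53), Egr3 (1.9) and Klf2 (1.88) were higher and Ier3 (0.607) lower, as in clustered cells. Jund (1.3), Atf3 (1.3), Rhob (1.19) and Hspa1b (1.49) missed the 1.5-fold size there. Fosb was also higher again in B-like (2) and T-like barcodes (2.02). Opposite directions included Egr1 in 105 and 104 B-like barcodes (75.4 and 139 CPM, 1.84, 1.44 to 2.37). Another was Klf2 in 89 and 76 fibroblast-like barcodes (530 and 885 CPM, 1.67, 1.48 to 1.89). In those barcodes the immediate early ratio was 1.02 and Fos was at 0.933. Of the 9 immediate early genes lower in clustered fibroblast-like cells, 3 were lower in those barcodes as well: Ier3 (0.383), Atf3 (0.586) and Nr4a2 (0.310). Junb (0.921), Zfp36 (1.06), Ppp1r15a (0.843) and Btg2 (1.4) were not. Of the 3 heat shock genes higher in the clustered cells, Hspa1a (112 and 173 CPM, 1.54) was higher here, and Hspa1b (1.25) and Hsp90aa1 (1.09) were not. Ier3 was within the 1.5-fold size in T-like barcodes (1.08, on 17 and 18 UMIs) and in those assigned to the haemoglobin-led cluster (0.936, on 232 and 152 UMIs). Clustered cells of the haemoglobin-led cluster had medians of 848 and 889 UMIs, so these barcodes are not like them in depth. All these barcodes come from the same 2 libraries, so they are no replicate.

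**Figure D4:**
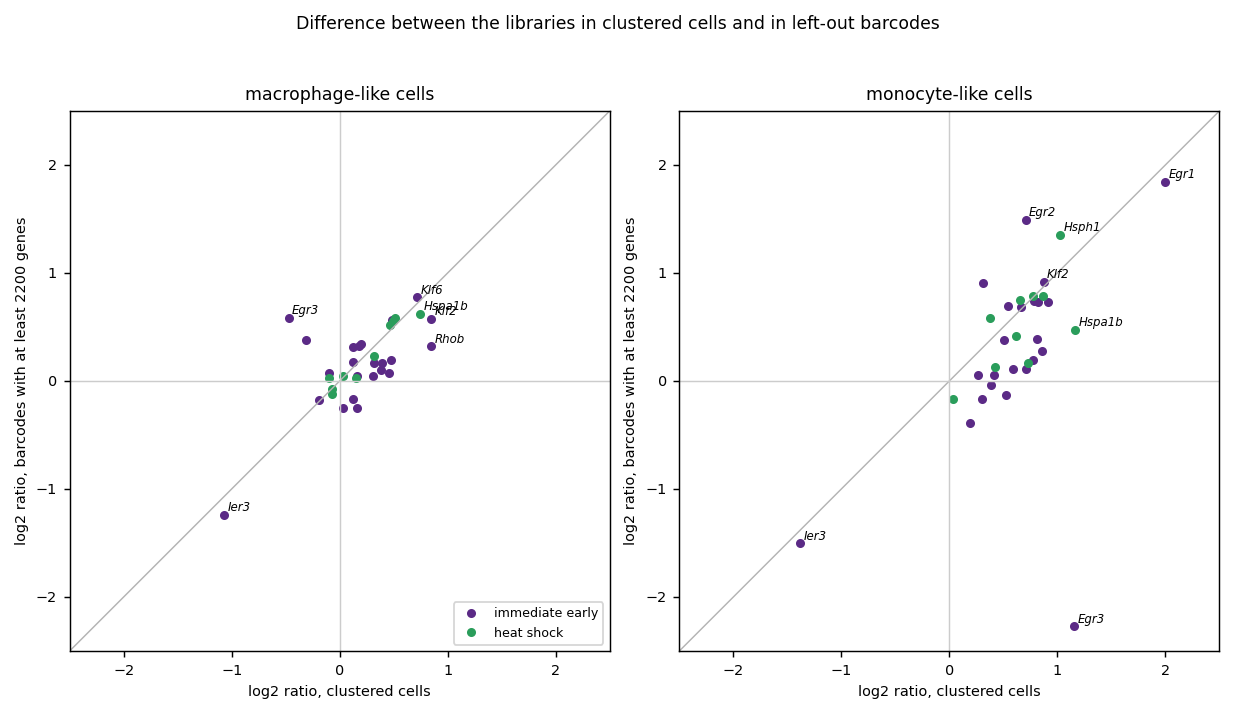
Log2 ratio of CPM, transgenic-labelled over wild type, of each gene with at least 20 UMIs in clustered cells (horizontal axis) and in left-out barcodes with at least 2200 genes assigned to the same cluster (vertical axis), for macrophage-like (left) and monocyte-like cells (right), with the line of equality. Ier3 lies at the lower left in both panels and Egr1 at the upper right in the monocyte-like panel, while Egr3 in the monocyte-like panel rests on 36 and 1 UMIs in the left-out barcodes.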

How the data were processed

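Single-cell 5' RNA sequencing was analysed for 1 wild type and 1 transgenic-labelled library. The deposited tables hold raw UMI counts per gene and barcode, and the deposited metadata give each kept cell a library, UMI and gene counts, the percent of mitochondrial and immunoglobulin UMIs and cluster numbers, per the file headers. Cell Ranger 5.0.0, Seurat 4.0 and mm10 are named, with no role, in the submitters' processing notes; cell calling and doublet treatment are not given in the sources used here. Cells and clusters were taken from the metadata and library totals from the count tables. No doublet caller was run.

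UMIs were summed per cluster and library and given as CPM with exact Poisson 95% intervals. Ratios carry an exact conditional binomial 95% interval, and shares of cells (thinned to 1000 UMIs) an exact binomial one. Intervals cover counting error only. Since each genotype is 1 library, no test was run, and differences were named by size (1.5-fold, 20 UMIs). All 34 members were named; of other lists, the 3 genes each way with the interval bound farthest from 1 and at least 50 UMIs, and for likeness the 10 highest Pearson r of log2(CPM + 10) among genes with at least 200 UMIs. The members and lists were chosen with earlier results of these data known. Values within finer monocyte-like and macrophage-like clusters, marker-carried levels, barcodes above 2200 genes, and the settings without 5 cells or the deepest 10% of cells were chosen after seeing the data. Counts for 10213 genes in macrophage-like cells were also simulated from the Poisson model that the intervals assume. There 96.1% of intervals held the true fold. Of 3-fold changes, 100% of rises and 99% of drops were called, and so were 8.77% of unchanged genes. UMIs gathered in a few cells were not simulated, so this does not check the intervals of such genes. Numpy 2.4.6, scipy 1.17.1 and pandas 2.3.3 were used. One gene that the naming rule selects is not reported here.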

Additional observations from a re-analysis of the deposited data

Results flagged for a closer look

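Of the 34 members, 13 were at least 1.5-fold higher in the transgenic-labelled library in one cluster and at least 1.5-fold lower in another, which is why they are listed, beside 13.9% of 10642 genes over the same 7 named clusters; with 1 library per genotype the difference between clusters was not tested. The ratios in neutrophil-like cells, where the median gene stood at 1.56, and in fibroblast-like cells were 2.31 and 0.625 for Fos, 1.81 and 0.52 for Junb, 3.94 and 0.591 for Atf3, and 1.62 and 0.553 for Zfp36. They were 2.08 and 0.457 for Nr4a2, 2.55 and 0.533 for Btg2, and 2.34 and 0.539 for Ppp1r15a. The Nr4a2 value of 2.08 rests on 13 UMIs of the transgenic-labelled library, 92.3% of them in 5 cells, and the direction turned without those cells (0.227) and without the deepest 10% of cells (0.783). Egr1 had 5.67 in neutrophil-like and 0.645 in B-like cells, and Egr2 had 5.11 in neutrophil-like and 0.608 in T-like cells. The Egr2 values rest on few UMIs, with 18 and 13 in these clusters of the wild type library. Klf2 had 1.83 in monocyte-like and 0.628 in fibroblast-like cells. Among heat shock genes, Hspa1a had 2.91 in fibroblast-like and 0.574 in B-like cells, Hspa1b had 4.34 and 0.346 in the same clusters, and Hspb1 had 2.44 in macrophage-like and 0.471 in T-like cells. The direction of Hspb1 in macrophage-like cells turned without the 5 top cells of each library. Relative to the median gene, the neutrophil-like ratios of Fos (1.48), Junb (1.16), Zfp36 (1.04) and Nr4a2 (1.33) missed the 1.5-fold size, and 7 of 34 members were called both ways (Egr1, Egr2, Atf3, Btg2, Hspa1a, Hspa1b and Hspb1), beside 11% of genes. Values for each gene's most extreme clusters are shown, so they overstate a typical difference.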

How the results depend on the processing

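No paired analysis was possible because each genotype had 1 library, and no replicate could be left out. Scaling by median ratios put the immediate early ratio at 0.977 over all clustered cells and 1.23 in macrophage-like cells, the heat shock ratios at 1.07 and 1.05, and left 0 clusters with either sum higher. Without the 20 most abundant genes, the ratios over all cells were 1.06 and 1.15. The mean of per-cell CPM gave 1.11 and 1.15 over all cells and 1.25 for immediate early genes in macrophage-like cells, where 2 immediate early genes were then lower and 1 heat shock gene each higher and lower. The stricter cell filter gave 1.07 for immediate early genes over all cells, and 1 cluster with their sum lower. Equal weight for each cluster gave 1.17 and 1.07. Without the deepest 10% of cells immediate early ratios were 1.08 over all and 1.22 in macrophage-like cells, with 2 immediate early genes lower and 1 heat shock gene higher there. The finer deposited clusters gave 1.22 for immediate early genes in macrophage-like cells, and the heat shock sum was higher in 2 clusters and lower in 1. In barcodes above the gene limit the macrophage-like ratios were 1.04 and 0.99. A 2-fold size left 0 immediate early genes and 1 heat shock gene higher in macrophage-like cells, and 0 clusters with either sum higher. The cause was not tested.

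Removing cells with markers of 2 classes took out 74.6% and 65.9% of cells and left 62 and 13 neutrophil-like cells, so it did not single out doublets. It gave 1.06 and 1.08 over all cells and 0.981 for heat shock genes in macrophage-like cells. It also turned the direction of Egr2 in T-like (1.47) and neutrophil-like cells (0), Ier3 in dendritic-like (1.01) and fibroblast-like cells (1.19), Hspa1a in T-like (1.63) and neutrophil-like cells (0) and Hspd1 in monocyte-like cells (0.986). It turned Atf3 in neutrophil-like cells (0.461), Ppp1r15a in neutrophil-like cells (0.738), Klf6 in neutrophil-like cells (0.651), Rhob in neutrophil-like cells (0.565) and Hspe1 in neutrophil-like cells (0). Without the 5 top cells the neutrophil-like ratios were 0.227 for Nr4a2, 0.361 for Hspa1a and 0 for Hspa1b, and Hspb1 in macrophage-like cells was 0.523; it was 0.652 as a mean of per-cell CPM. Nr4a2 in neutrophil-like cells was 0.783 without the deepest 10% of cells. For 5 values no UMI was left in the wild type library and no ratio could be given.

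The data cannot separate genotype from library, animal, cell handling or sequencing run. Values under 20 UMIs, and those of fibroblast-like and neutrophil-like cells of the transgenic-labelled library, rest on few cells.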
